A study of Mus musculus with 6 samples.

Results

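The acrosome is the secretory cap that a spermatid builds over its nucleus from Golgi vesicles and that a sperm releases at the egg. The 36 genes described here were taken by name for their part in it, and all 36 had a row in the deposited table of 38715 genes. They were grouped by role into 9 genes of acrosome biogenesis, 15 enzymes with their inhibitor and 12 proteins of the acrosomal surface and matrix. The tissue was whole testis of mice, 3 libraries titled Middle, read as the MES-exposed group that the design text names, and 3 titled Control. The series title places the exposure in early life and concerns testosterone production. The sources used here give no strain, age, dose or route, and no genotype or treatment that both groups share. The labels leave unsaid whether each library is from an animal of its own.

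Acrosome formation begins when vesicles leave the Golgi of the early spermatid, fuse at the nucleus and are held there by proteins of the nuclear envelope and of the acrosomal membrane. Mice or men that lack one of these proteins often make round-headed sperm, a condition called globozoospermia. The vesicle is filled with the protease acrosin, hyaluronidases and binding proteins, and its membranes carry proteins that act later in passage through the cumulus and at the zona pellucida. Several of these proteins are held by a glycosylphosphatidylinositol (GPI) lipid anchor.

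The labelled tissue carried its own markers. Markers of elongating spermatids summed to 31286 to 33885 RPKM in Middle and 33218 to 36673 RPKM in Control, where RPKM is the authors' read number scaled to gene length and library total. Markers of the epididymis, where sperm and several relatives of these genes are also found, summed to 0.768 to 1.29 RPKM in Middle and 0.786 to 1.26 RPKM in Control over the 8 of 11 that had a row, and Adam7 was listed at 0 in 5 of the 6 libraries. Libraries held 46649138 to 56435498 reads in Middle and 38820385 to 58389391 reads in Control. Middle replicate 1 stood apart on the first principal component, and its deviation from the other libraries followed transcript GC content, with a rank correlation of 0.447 over genes. That correlation was 0.025 and -0.069 in Middle replicates 2 and 3 and -0.295, -0.216 and -0.246 in Control replicates 1 to 3, so the groups did not overlap in it and the GC trend and the group cannot be told apart. Values without Middle replicate 1 are given for tested acrosome genes where that library changed a log2 fold change or a p by much.

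No acrosome gene passed the test between Middle and Control. Of the 36 genes, 34 had a mean of at least 1 RPKM in a group and were tested, and 0 of them were called at an adjusted p under 0.05 (limma on log2(RPKM + 1), Benjamini-Hochberg over 15040 genes), against 0.0532% of all genes tested. The smallest adjusted p among them was 0.178. A fit of the recovered reads (limma-voom) took in all 36 genes and also called 0, against 0.0419% of all genes in that fit. There 13 of the 36 had an unadjusted p under 0.05, against 17.8%. Most acrosome genes lay on the low side in Middle: 24 of 34, or 70.6%, had a log2 fold change below 0, against 44.1% of all genes tested. Their median log2 fold change was -0.12, against 0.027 over all genes tested. In all, 8 of the 34 acrosome genes tested had an unadjusted p under 0.05, as had 20.7% of all genes tested. Of these, 5 were lower in Middle (14.7% of the 34, against 9.02% of all genes tested) and 3 were higher (8.82%, against 11.7%). The 3 Middle libraries lay below the 3 Control libraries for 8 genes (23.5%, against 11.4%) and above them for 3 (8.82%, against 17.9%). Leaving out Middle replicate 1 moved the median of the acrosome genes to -0.080, with 24 of 34 still below 0.

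**Figure D1:**
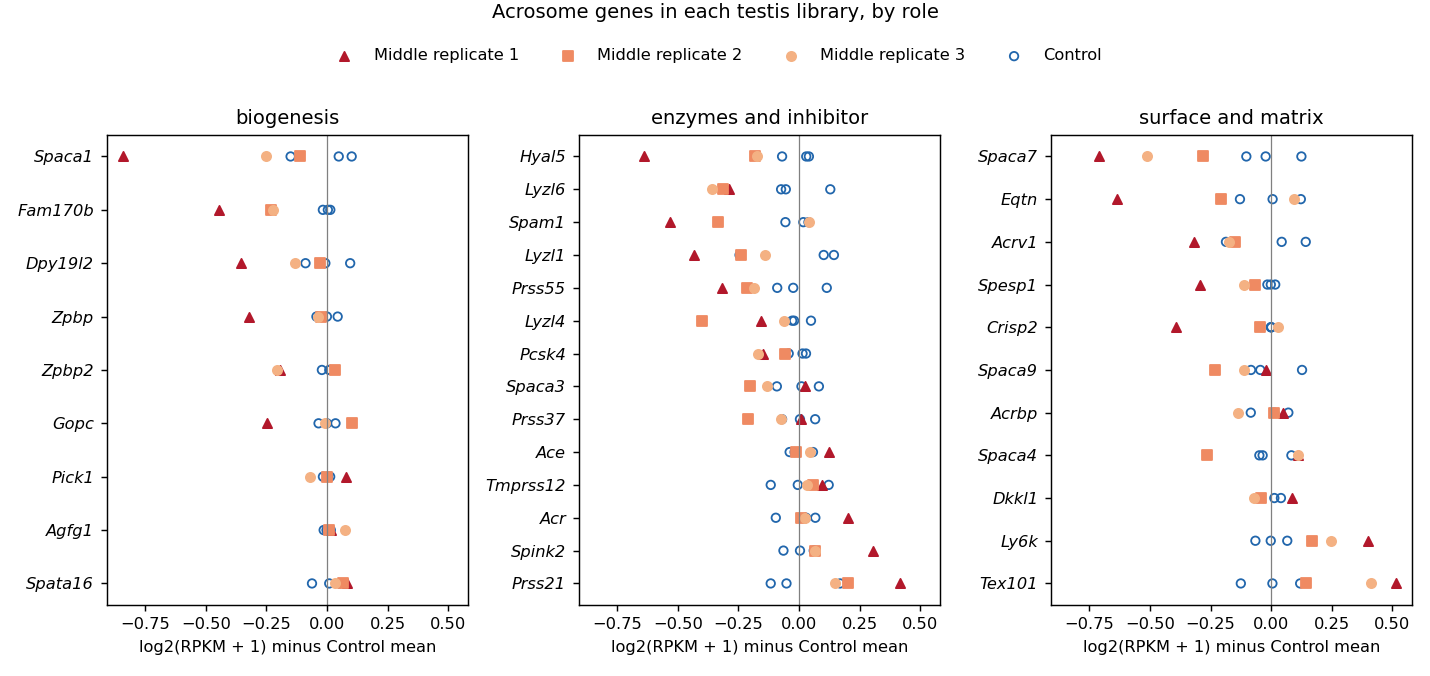
Each of the 34 tested acrosome genes in every library, as log2(RPKM + 1) minus the mean of the 3 Control libraries, in 3 panels by role. Filled marks are the Middle replicates and open circles the Control libraries, and Middle replicate 1 (triangles) is the lowest library for 14 genes and the highest for 10.

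Summed over the 36 genes, the level was 2446 to 2466 RPKM in Middle and 2475 to 2535 RPKM in Control. The groups did not overlap in the sum, by a narrow margin, and the most abundant genes, such as Crisp2 and Spata16, weigh most in it. The genes took up 0.494% to 0.51% of reads in Middle and 0.513% to 0.523% in Control. In bulk tissue, fewer cells of a type and less RNA per cell cannot be told apart.

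Among the biogenesis genes, the member with the smallest p was Fam170b, which encodes an acrosomal protein of spermatids (chromosome 14, 32555919 to 32558746, GRCm39). It stood at 26.8, 31.2 and 31.4 RPKM in Middle and at 37.2, 36.4 and 36.9 RPKM in Control. Each Middle library was below each Control library, and the Control libraries differed little among themselves. The ratio of means was 0.809, with a log2 fold change of -0.30 (SE 0.07, 95% interval -0.47 to -0.13, adjusted p = 0.178, limma). Without Middle replicate 1 the ratio was 0.851.

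Spaca1, a protein of the inner acrosomal membrane whose loss in mice gives round-headed sperm, had the lowest log2 fold change of this group. Its libraries held 27.1, 45.7 and 41.3 RPKM in Middle and 51.1, 44.4 and 53.1 RPKM in Control. Middle replicate 1 was far below the rest, and Middle replicate 2 lay above the lowest Control library. The ratio of means was 0.768 with Middle replicate 1 and 0.878 without it, and limma gave an adjusted p of 0.25 for the log2 fold change of -0.40 (SE 0.18).

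Spata16, a Golgi protein of spermatids whose mutation causes globozoospermia in men, was the most abundant of the biogenesis genes. It stood at 351.6, 347 and 339 RPKM in Middle and at 334, 344 and 318 RPKM in Control. The groups overlapped, and the 95% interval of its log2 fold change ran from -0.07 to 0.19. Zpbp2, a zona-binding matrix protein needed for a compact acrosome, stood at 70.1, 82.0 and 69.5 RPKM in Middle and at 80.7, 80.8 and 79.0 RPKM in Control. Middle replicate 2 of Zpbp2 was above every Control library while the other two Middle libraries were below them. Its close relative Zpbp was much less abundant, at 11.3 ± 1.38 RPKM in Middle and 12.4 ± 0.41 RPKM in Control (SD, n = 3 each). The ratio of Zpbp2 to Zpbp within a library was 6.56 ± 0.73 in Middle and 6.46 ± 0.29 in Control (SD, n = 3 each). Zpbp shares 5.25% of its exon bases with the opposite-strand gene Spata48, which stood at 40.0 to 44.4 RPKM. The counting is not stated to use strand, so the level of Zpbp and this ratio are uncertain.

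Pick1 and Gopc encode PDZ proteins that bind each other and act in the traffic of Golgi vesicles to the acrosome. Pick1 stood at 7.33, 6.88 and 6.51 RPKM in Middle and at 6.96, 6.79 and 6.91 RPKM in Control, and its log2 fold change of 0.0032 had a 95% interval of -0.15 to 0.16. Gopc averaged 2.64 ± 0.44 RPKM in Middle and 2.76 ± 0.091 RPKM in Control, and its interval ran from -0.28 to 0.18 (SD, n = 3 each). Agfg1, which is needed for proacrosomal vesicles to fuse, averaged 9.58 ± 0.26 RPKM in Middle and 9.34 ± 0.11 RPKM in Control (SD, n = 3 each). Dpy19l2, a protein of the inner nuclear membrane that anchors the acrosome, averaged 23.6 ± 2.76 RPKM in Middle and 26.7 ± 1.78 RPKM in Control (SD, n = 3 each), and its ratio of 0.886 was 0.942 without Middle replicate 1. Pick1 shares 18.6% of its exon bases with Gm49486 on the same strand, so its level is uncertain. In all, 1 of the 9 biogenesis genes did not overlap between groups (11.1%, against 29.3% of all genes tested).

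The protease genes lay on both sides. Acr encodes acrosin, the trypsin-like protease stored in the acrosome, and was the most abundant protease. It stood at 144.4, 126 and 127.5 RPKM in Middle and at 117, 131 and 128 RPKM in Control, with overlapping groups and a 95% interval of -0.10 to 0.26 for its log2 fold change. Spink2, the Kazal-type inhibitor that keeps acrosin in check, stood at 383, 324 and 324 RPKM in Middle and at 296, 310.5 and 323 RPKM in Control. Spink2 was higher in every Middle library than in any Control library, by a narrow margin in Middle replicates 2 and 3, and its log2 fold change was 0.15 (SE 0.08, adjusted p = 0.319, limma). Within a library the ratio of Spink2 to Acr was 2.65, 2.57 and 2.54 in Middle and 2.53, 2.36 and 2.53 in Control. The ratio was above Control in every Middle library, by a small margin in Middle replicate 3. Acrbp, the protein that binds the acrosin precursor and is counted with the matrix proteins, stood at 138, 134.7 and 122 RPKM in Middle and at 135, 126 and 140.5 RPKM in Control, with overlapping groups. It shares 29.8% of its exon bases with Gm44597 on the same strand, so its level is uncertain.

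The serine proteases Prss55 and Prss21, both held by a GPI anchor, differed in direction. Prss55 (chromosome 14, 64312887 to 64327611) stood at 36.4, 39.2 and 40.0 RPKM in Middle and at 49.5, 42.8 and 44.9 RPKM in Control. Every Middle library was below every Control library, and the log2 fold change was -0.24 (SE 0.07, adjusted p = 0.178, limma). Prss21, also called testisin (chromosome 17, 24087030 to 24092088), stood at 8.31, 7.02 and 6.74 RPKM in Middle and at 5.43, 5.73 and 6.84 RPKM in Control. Its highest Control library lay above its lowest Middle library, and the log2 fold change was 0.26 (SE 0.10, adjusted p = 0.227, limma). Without Middle replicate 1 it was 0.18, and the unadjusted p was no longer under 0.05. Within a library the ratio of Prss21 to Prss55 was 0.192 ± 0.032 in Middle and 0.132 ± 0.021 in Control (SD, n = 3 each). No library scaling can move this ratio. The genes were set against each other after their directions in these libraries were known, so the higher ratio in Middle is no separate result. Prss37, a protease relative needed for the maturation of the sperm protein ADAM3, averaged 49.6 ± 3.86 RPKM in Middle and 52.9 ± 2.55 RPKM in Control. Tmprss12, a transmembrane serine protease, averaged 6.33 ± 0.15 RPKM in Middle and 6.04 ± 0.59 RPKM in Control (SD, n = 3 each for both genes).

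The bases that code for the active-site serine show which of these proteins keep the catalytic motif of trypsin-like proteases. They are taken from GENCODE M21 transcripts, 5′ to 3′, with the serine codon in capitals.
Acr: tgccagggggacAGTggtgggcctctc
Prss55: tgccagggtgacAGTgggggaccgctt
Prss21: tgctttggtgacTCGggaggacccttg
Tmprss12: tgcaggggtgacAGCgggggaccacta
A search for the same motif in the longest reading frame of Prss37 found no match. Prss55 and Prss21 both hold the motif, and their means lay on different sides of Control.

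Other enzymes of the acrosome and sperm surface ranged widely in level. Ace, whose testis form cuts dipeptides from peptides and is needed for sperm to bind the zona, stood at 129, 117 and 122 RPKM in Middle and at 123, 117 and 115 RPKM in Control. Its groups overlapped. Pcsk4, a proprotein convertase of germ cells, averaged 14.0 ± 0.64 RPKM in Middle and 15.3 ± 0.42 RPKM in Control (SD, n = 3 each), with no overlap between groups and a log2 fold change of -0.13 (SE 0.06, adjusted p = 0.282, limma). Pgap1, an enzyme of the endoplasmic reticulum that trims the GPI anchor, was not tested, at 0.068 to 0.085 RPKM in Middle and 0.072 to 0.10 RPKM in Control.

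Hyaluronidases, which loosen the matrix between cumulus cells, came from the neighbouring genes Spam1 and Hyal5. Hyal5 (chromosome 6, 24857996 to 24891957) stood at 7.03, 10.1 and 10.1 RPKM in Middle and at 11.8, 10.9 and 11.9 RPKM in Control. No Middle library reached a Control library, and the log2 fold change was -0.33 (SE 0.13, 95% interval -0.63 to -0.034, adjusted p = 0.215, limma). The ratio of means was 0.786 with Middle replicate 1 and 0.874 without it. Spam1 averaged 12.4 ± 2.77 RPKM in Middle and 15.1 ± 0.55 RPKM in Control (SD, n = 3 each), and its Middle replicate 3 was level with the highest Control library. The ratio of Hyal5 to Spam1 was 0.735 ± 0.11 in Middle and 0.767 ± 0.053 in Control (SD, n = 3 each).

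All 4 lysozyme-like genes had lower means in Middle, although the groups overlapped for Spaca3 and Lyzl1. Lyzl6 (chromosome 11, 103521896 to 103529716) stood at 15.3, 15.05 and 14.6 RPKM in Middle and at 20.8, 18.0 and 18.2 RPKM in Control. The Middle libraries were close together and all below Control, and the ratio of 0.789 was 0.779 without Middle replicate 1. The log2 fold change was -0.32 (SE 0.07, 95% interval -0.49 to -0.15, adjusted p = 0.178, limma). Lyzl4 averaged 20.03 ± 2.47 RPKM in Middle and 23.2 ± 0.72 RPKM in Control, with no overlap between groups. Lyzl1 averaged 27.95 ± 2.94 RPKM in Middle and 34.1 ± 4.97 RPKM in Control. Spaca3, the sperm lysozyme-like protein of the acrosome, averaged 21.0 ± 1.79 RPKM in Middle and 22.5 ± 1.41 RPKM in Control (SD, n = 3 each for these genes).

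The surface and matrix group held both the lowest and the highest log2 fold change of the 34 genes. Spaca7, a secreted acrosomal protein that acts in the dispersal of cumulus cells (chromosome 8, 12623029 to 12650744), had the lowest of all. It stood at 36.7, 49.8 and 42.3 RPKM in Middle and at 59.8, 56.5 and 66.3 RPKM in Control. The groups did not overlap, with a ratio of 0.705 and a log2 fold change of -0.50 (SE 0.11, 95% interval -0.77 to -0.24, adjusted p = 0.178, limma), and the ratio was 0.756 without Middle replicate 1. The opposite-strand gene D630011A20Rik shares 13.5% of the exon bases of Spaca7, and since the counting is not stated to use strand, reads of the pair cannot be told apart.

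Tex101 and Ly6k lay on the other side. Both encode GPI-anchored proteins of the Ly6 family that bind each other on germ cells and are needed for sperm migration through the oviduct. Tex101 (chromosome 7, 24367432 to 24376100) stood at 46.9, 36.1 and 43.6 RPKM in Middle and at 29.8, 32.7 and 35.5 RPKM in Control. Ly6k (chromosome 15, 74668723 to 74671835) stood at 59.2, 50.3 and 53.2 RPKM in Middle and at 42.6, 44.6 and 46.8 RPKM in Control. All 3 Middle libraries were above all 3 Control libraries for both genes. The log2 fold change was 0.36 for Tex101 (SE 0.11, 95% interval 0.11 to 0.61) and 0.27 for Ly6k (SE 0.08, 95% interval 0.096 to 0.45), each with an adjusted p of 0.178 (limma). Without Middle replicate 1 the ratios were 1.22 for Tex101 and 1.16 for Ly6k, against 1.29 and 1.21 with it. The opposite-strand gene Gm17189 shares 47.6% of the exon bases of Ly6k, so the level of Ly6k is uncertain.

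**Figure D2:**
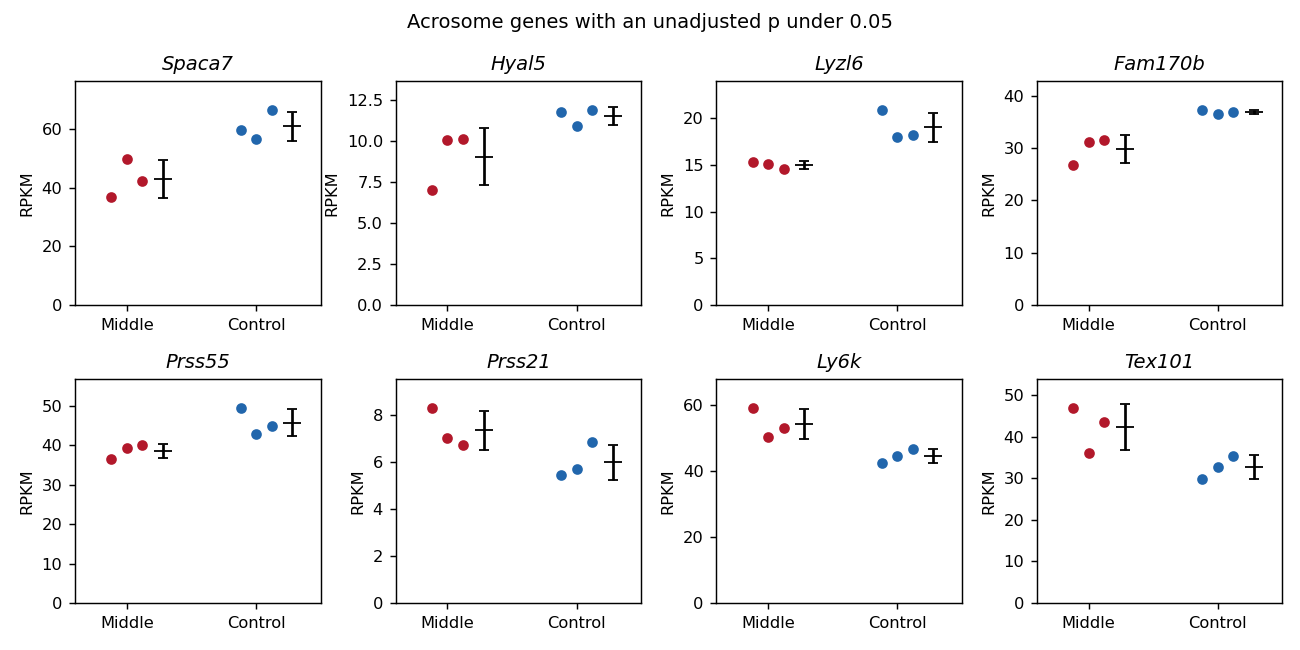
RPKM in every library for the 8 acrosome genes with an unadjusted p under 0.05, ordered by log2 fold change, with Middle in red on the left and Control in blue on the right of each panel. Bars give the mean ± SD of 3 libraries, and the groups overlap only for Prss21.

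Crisp2 and Dkkl1 were the most abundant genes of the group, and Spaca4 was among those with the smallest change. Crisp2, a cysteine-rich secretory protein of the acrosome and tail, stood at 298, 380.0 and 400.5 RPKM in Middle and at 393, 392 and 392 RPKM in Control. Middle replicate 1 was low and the other two Middle libraries lay on either side of Control, and the ratio of 0.917 was 0.995 without Middle replicate 1. Dkkl1, a glycoprotein of the acrosome, stood at 276, 252 and 247 RPKM in Middle and at 267, 249.8 and 262 RPKM in Control. The 95% interval of its log2 fold change ran from -0.16 to 0.14. Spaca4, a GPI-anchored protein of the Ly6 family in the acrosomal membrane, stood at 32.8, 24.98 and 32.8 RPKM in Middle and at 32.1, 29.5 and 29.2 RPKM in Control, with an interval of -0.27 to 0.24.

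The remaining members of the group had lower means in Middle and none passed the test. Eqtn (equatorin), of the acrosomal membrane, averaged 30.2 ± 7.68 RPKM in Middle and 35.4 ± 3.16 RPKM in Control, and its ratio of 0.853 was 0.963 without Middle replicate 1. Spesp1, of the equatorial segment, averaged 37.6 ± 3.12 RPKM in Middle and 42.0 ± 0.48 RPKM in Control, with no overlap between groups. Acrv1, an acrosomal matrix protein long used to stage spermatids, averaged 16.0 ± 1.05 RPKM in Middle and 18.8 ± 2.26 RPKM in Control. Its groups overlapped, as did those of Spaca9, which averaged 90.3 ± 6.64 RPKM in Middle and 98.2 ± 7.85 RPKM in Control (SD, n = 3 each for these genes). Zan, the zona-binding protein zonadhesin, was not tested, at 0.485 to 0.723 RPKM in Middle and 0.618 to 0.787 RPKM in Control.

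The medians of the role groups were alike with all 6 libraries and spread out in other fits. The median log2 fold change was -0.12 for the 9 biogenesis genes, -0.11 for the 14 enzymes tested and -0.12 for the 11 surface and matrix genes tested. Genes below 0 numbered 6 of 9, 9 of 14 and 9 of 11. Groups of libraries did not overlap for 1 of 9 biogenesis genes (11.1%), 6 of 14 enzymes (42.9%) and 4 of 11 surface and matrix genes (36.4%), against 29.3% of all genes tested. Middle replicate 1 was the lowest library for 5 of 9 biogenesis genes, 4 of 14 enzymes and 5 of 11 surface and matrix genes, against 28.4% of all genes tested. Without it the medians were -0.035 for biogenesis, -0.14 for enzymes and -0.063 for surface and matrix. Without Middle replicate 2 instead, they were -0.18 for biogenesis, -0.082 for enzymes and -0.065 for surface and matrix. The order of the groups therefore depended on which library was left out. With the GC trend removed they were -0.040 for biogenesis, -0.16 for enzymes and -0.11 for surface and matrix.

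**Figure D3:**
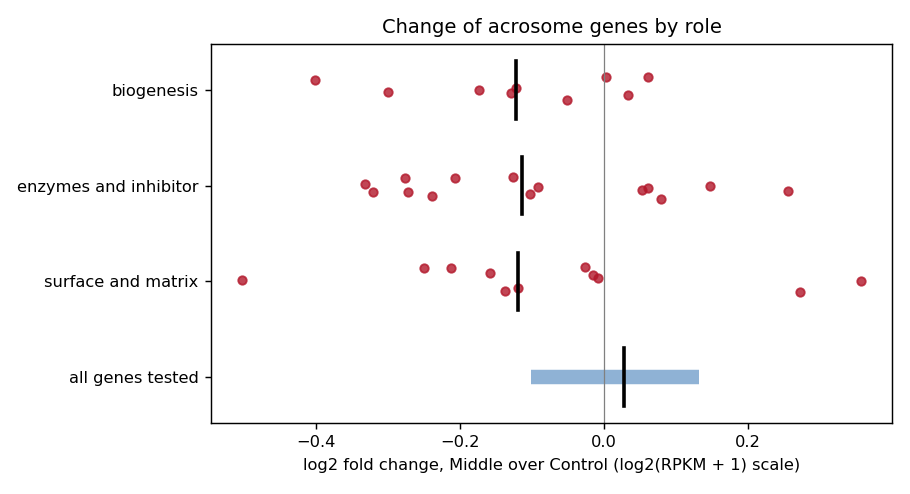
Log2 fold change of each tested acrosome gene (red points, vertical jitter only for display) by role, with the median of each role as a black bar. The blue bar gives the middle part of all 15040 genes tested, from the lower to the upper quartile, around their median of 0.027, and the 3 role medians lie at -0.12, -0.11 and -0.12 in this fit.

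Other acrosome genes also changed in log2 fold change when Middle replicate 1 was left out. Nearer to 0 lay Spink2 (0.066 without that library, against 0.15 with it), Spam1 (-0.15 against -0.28), Spesp1 (-0.090 against -0.16), Zpbp (-0.033 against -0.13), Acr (0.017 against 0.079) and Ace (0.017 against 0.052). Farther from 0 lay Spaca3 (-0.17 against -0.10), Prss37 (-0.14 against -0.092), Acrbp (-0.063 against -0.026), Spaca4 (-0.078 against -0.015) and Dkkl1 (-0.056 against -0.0081). Also nearer to 0 were Lyzl1 (-0.19 against -0.27), Acrv1 (-0.16 against -0.21), Prss55 (-0.20 against -0.24) and Zpbp2 (-0.086 against -0.12). Also farther from 0 were Spaca9 (-0.17 against -0.12) and Lyzl4 (-0.23 against -0.21). The sign turned for Gopc (0.048 against -0.051) and Pick1 (-0.035 against 0.0032). Spaca3 had an unadjusted p under 0.05 without the library and Prss21 did not.

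Transcript GC content varied with the log2 fold change. Over the 34 genes, GC content and log2 fold change had a Pearson r of 0.32 and a Spearman rho of 0.377, across genes that share the same 6 libraries and are not independent. Over 14201 genes tested with a known GC content the values were 0.317 and 0.346. Without Middle replicate 1 the acrosome genes had a Pearson r of 0.040 and a rho of -0.015. After the GC trend was taken out of every library, the median over the 34 genes was -0.10, with 25 below 0. In that fit 13 of the 34 had an unadjusted p under 0.05, against 20.5% of all genes. With a lower level in Middle, 10 of the 34 had such a p, against 9.96% of all genes. The 8 genes named above by unadjusted p had that p under 0.05 in this fit as well. Their GC content ran from 39.9% to 52.9% for the 5 lower in Middle and from 51.2% to 53.9% for the 3 higher.

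**Figure D4:**
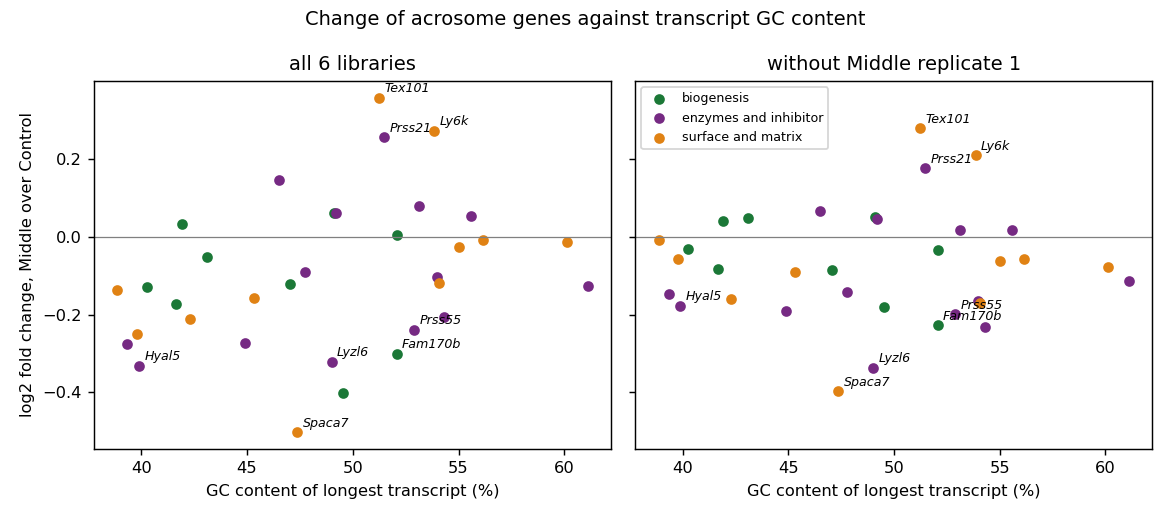
Log2 fold change of the 34 tested acrosome genes against the GC content of their longest transcript, with all 6 libraries on the left and without Middle replicate 1 on the right, coloured by role. Spaca7 is lowest and Tex101 and Ly6k are highest in both panels, while the slope on the left (Pearson r 0.32) is near 0 on the right (0.040).

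The promoters of genes on both sides were read because lower and higher members fell into small sets. They are the 250 bases before the start in RefSeq, on GRCm38.p6, another build than that of the deposited table, for the members with a promoter entry and the smallest p on each side. They run 5′ to 3′ on the strand of the gene, with TGATGTCA and the X-box half-site GTTGCC (either strand) in capitals.
Spaca7, plus strand, chr8:12572786-12573035: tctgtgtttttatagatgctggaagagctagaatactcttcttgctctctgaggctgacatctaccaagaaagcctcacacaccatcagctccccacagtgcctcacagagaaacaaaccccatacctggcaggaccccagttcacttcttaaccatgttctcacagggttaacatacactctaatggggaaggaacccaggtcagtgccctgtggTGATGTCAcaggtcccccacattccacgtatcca
Lyzl6, minus strand, chr11:103638891-103639140: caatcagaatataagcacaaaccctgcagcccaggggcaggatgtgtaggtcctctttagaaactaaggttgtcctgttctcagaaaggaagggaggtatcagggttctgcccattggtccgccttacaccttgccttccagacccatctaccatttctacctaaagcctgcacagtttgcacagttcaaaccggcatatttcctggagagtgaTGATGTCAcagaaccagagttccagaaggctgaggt
Tex101, minus strand, chr7:24672051-24672300: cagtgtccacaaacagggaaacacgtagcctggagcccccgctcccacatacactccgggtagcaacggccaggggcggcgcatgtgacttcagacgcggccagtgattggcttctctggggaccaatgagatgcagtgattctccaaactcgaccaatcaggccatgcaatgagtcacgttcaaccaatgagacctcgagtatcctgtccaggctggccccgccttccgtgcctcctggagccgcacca
Prss21, plus strand, chr17:23867822-23868071: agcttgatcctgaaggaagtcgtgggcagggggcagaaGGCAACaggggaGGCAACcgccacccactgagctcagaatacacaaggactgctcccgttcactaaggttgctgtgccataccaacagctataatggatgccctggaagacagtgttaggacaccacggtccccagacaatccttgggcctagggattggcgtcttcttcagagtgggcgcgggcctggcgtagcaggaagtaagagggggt
The cAMP response element TGACGTCA, which the spermatid activator CREM binds, was found on either strand in 0 of 28 member promoters and in 1.62% of 27025 promoters. Its half-site TGACGT, which the full element contains, was in 1 of 28 and 6.56%. GTTGCC was in 6 of 28 and 10.5%, and the MYB motif AACNGTT was in 2 of 28 and 3.68%.

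The letters TGATGTCA were searched after the first of these sequences had been read, so their count among the members is a description. They were found on either strand in 5 of 28 member promoters, against 3.02% of all promoters. The 5 were Spaca7, Lyzl6, Fam170b, Hyal5 and Spam1. The windows below carry the letters in capitals and are oriented to read them.
Spaca7, chr8:12572991-12573020: gtgccctgtggTGATGTCAcaggtccccca
Lyzl6, chr11:103638908-103638937: ctggagagtgaTGATGTCAcagaaccagag
Spam1, chr6:24791131-24791160: agttcactttgTGATGTCAtctgttcctag
Hyal5, chr6:24857901-24857930: tgtctactttgTGATGTCAtctgcttctag
Fam170b, opposite strand, chr14:32833942-32833961: gTGATGTCAtcagtgacacg
The letters end 26, 28, 38, 77 and 1 bases before the start of Spaca7, Lyzl6, Spam1, Hyal5 and Fam170b in that order. Spam1 and Hyal5 are neighbouring gene copies whose windows are alike, so they are not separate cases. Since Spaca7 and Lyzl6 were read for their small p, no fold change of members with the letters is set against the others.

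The same letters were then looked for over the tested genes outside the 36 that had a promoter entry. The libraries are those whose p-values chose the promoters read, so the comparison is no independent test. Genes whose promoter held TGATGTCA numbered 316, with a median log2 fold change of -0.064 and 63.3% below 0, against a median of 0.041 and 40.1% below 0 for the 9325 genes without it. An unadjusted p under 0.05 with a lower level in Middle was reached by 19.9% of the genes with the letters and 7.35% of those without, and with a higher level by 4.75% and 12.9%. Without Middle replicate 1 the shares that were lower were 17.1% and 6.34%, and with the GC trend removed 20.6% and 8.55%. A match is no evidence that a factor binds there, and what else these genes share was not tested.

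Other genes of the pathway, listed with earlier results known, lay partly on the same side. Of 23 further biogenesis genes, 0 were called at an adjusted p under 0.05 (limma), against 0.0532% of all genes tested. Below 0 lay 18 (78.3%, against 44.1%), and 8 reached an unadjusted p under 0.05, all lower in Middle (34.8%, against 9.02%). Garin1b and Garin3, Golgi-associated proteins of spermatids, averaged 130.5 ± 9.69 and 98.5 ± 8.81 RPKM in Middle and 184.6 ± 23.0 and 131 ± 13.7 RPKM in Control. Cylc1, a protein of the perinuclear cytoskeleton that links acrosome and nucleus, averaged 14.1 ± 4.45 RPKM in Middle and 26.4 ± 4.31 RPKM in Control (SD, n = 3 each for these genes). The groups did not overlap for these 3 genes, with log2 fold changes of -0.49, -0.41 and -0.90 and an adjusted p of 0.178 each (limma). Cylc1 was lowest in Middle replicate 1, at 8.95 RPKM, against 17.1 and 16.1 RPKM in the other Middle libraries. With the GC trend removed its log2 fold change was -0.76. Garin1b and Garin3 had no known GC content and were not in that fit.

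Genes of ADAM3 maturation and zona binding showed the lowest median of the lists. Of 10 tested, 0 were called (limma), against 0.0532% of all genes tested, and 9 lay below 0 (90%, against 44.1%). The median was -0.24, and 5 reached an unadjusted p under 0.05, all lower in Middle (50%, against 9.02%). Adam1a, a partner of ADAM2 in the sperm surface complex, averaged 42.2 ± 6.22 RPKM in Middle and 54.8 ± 3.99 RPKM in Control. Galntl5, a transferase-like protein of spermatids, averaged 92.4 ± 16.9 RPKM in Middle and 125 ± 10.8 RPKM in Control, and Adam1b averaged 46.0 ± 5.86 RPKM in Middle and 56.7 ± 1.001 RPKM in Control (SD, n = 3 each). Adam3 itself, which depends on Tex101, Ly6k and Prss37 for its place on sperm, stood at 93.9, 129.8 and 95.1 RPKM in Middle and at 135.7, 126.8 and 127.5 RPKM in Control. Middle replicate 2 lay within the Control range, and the mean was lower in Middle, unlike those of Tex101 and Ly6k.

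Genes of acrosomal exocytosis, the membrane fusion that releases the acrosome, split evenly. Of 10 tested, 0 were called (limma), against 0.0532% of all genes tested. Below 0 lay 5 (50%, against 44.1%), and the median was -0.013. An unadjusted p under 0.05 (limma) was reached by 2 genes lower in Middle (20%, against 9.02%). It was also reached by 1 gene higher in Middle (10%, against 11.7%), which is not reported here. The groups did not overlap for 4 lower genes (40%, against 11.4%) and 1 higher gene (10%, against 17.9%). Plcd4, a phospholipase of the zona-induced acrosome reaction, averaged 26.7 ± 2.58 RPKM in Middle and 32.9 ± 3.03 RPKM in Control, and Snap23, a membrane fusion protein, averaged 9.59 ± 0.28 RPKM in Middle and 11.1 ± 0.35 RPKM in Control (SD, n = 3 each for these genes).

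Markers of cell types lay on both sides in the same comparison. Of 14 elongating spermatid markers 12 lay below 0, with a median log2 fold change of -0.16, and of 14 round spermatid markers 9 lay below 0, with a median of -0.071 and a summed level of 2886 to 2942 RPKM in Middle and 2990 to 3073 RPKM in Control. Pachytene spermatocyte markers had a median of 0.030, with 8 of 14 above 0. Sertoli cell markers summed to 360 to 389 RPKM in Middle and 338 to 348 RPKM in Control (11 of 13 tested above 0), and spermatogonium markers to 50.9 to 63.8 RPKM in Middle and 41.1 to 50.2 RPKM in Control (6 of 6 tested above 0). Peritubular cell markers had a median of 0.23, with 7 of 8 above 0. Ribosomal protein genes, listed as a possible sign of RNA quality, had a median of 0.25, with 86 of 87 tested above 0. Mitochondrially encoded genes had a median of 0.45, with 8 of 9 tested above 0. The 1 below 0 had a log2 fold change of -1.16, while the highest of the set was 0.55. An unadjusted p under 0.05 (limma) was reached by 8 higher and 1 lower, against 11.7% and 9.02% of all genes tested. Of the 9, 1 was called at an adjusted p under 0.05 (limma), against 0.0532% of all genes tested. The part of these cell types and of RNA quality in the acrosome result, or in the ribosomal and mitochondrial genes, was not tested.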

How the data were processed

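RNA of 6 mouse testis libraries was sequenced from messenger RNA libraries, per the labels' protocols. The submitters' processing notes name fastp 0.23.0 and the build GRCm39. Aligner, counter and strandedness were not given in the sources used here, nor was the handling of reads with several matches. The authors deposited RPKM values per gene and library, with gene lengths and exon coordinates. Multiplied by length, every value was a whole multiple of 1 step per library within 0.001, which gave back the reads. A gene of 1 kb with 1 read has 0.0171 to 0.0258 RPKM. Intervals cover the spread between these libraries, which may be technical, since no label states separate animals. Counts of reads differed between libraries of a group beyond sampling noise (chi-square per degree of freedom 6.26 to 34.4).

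Genes whose mean reached 1 RPKM in either group were tested as log2(RPKM + 1). Middle was set against Control in limma 3.58.1 under R 4.3.3, with a trended variance and two-sided p-values adjusted by Benjamini-Hochberg over all genes tested. A fold on this scale is too small for low genes. All 36 members are reported. Values in every library are given for those with an unadjusted p under 0.05, the 3 with the highest level in each role and the 3 with the smallest change, and up to 3 genes with the smallest p are named from each other list, with Adam3 added after its values were seen. Of the genes this rule names, 1 is not reported here. The members, roles and lists were chosen with earlier results of these data known. GC content came from GENCODE M21 transcripts by symbol (94.4% of tested genes). Protein sequences were not used here. Promoters came from RefSeq (GRCm38.p6) by symbol, and 28 of the 34 tested members matched. The alternatives were other pseudocounts, filters, scalings and thresholds, limma-voom, a replicate block, leaving out each library and removal of the GC trend. Sample weights, and the GC trend removed without Middle replicate 1, were added after seeing the data.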

Additional observations from a re-analysis of the deposited data

How the results depend on the processing

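No acrosome gene was called at an adjusted p under 0.05 in any of the 16 alternative fits, or under 0.1 in the fit reported. Some alternative fits gave an adjusted p between 0.05 and 0.1, the lowest being 0.059 for Spaca7. The direction of 25 of the 34 tested members held in every fit. It turned in at least 1 fit for Gopc, Pick1, Zpbp, Acr, Ace, Acrbp, Spaca4, Crisp2 and Dkkl1. Spaca7, Lyzl6, Fam170b, Tex101 and Ly6k had an unadjusted p under 0.05 in every fit, Prss55 in 15, Hyal5 in 12 and Prss21 in 9. The number of members with that p, 8 as reported, was 13 under median-of-ratios scaling, upper-quartile scaling, limma-voom and GC trend removal, and ran from 5 to 12 with single libraries left out, the lowest without Control replicate 1 and the highest without Middle replicate 2 or 3. The calls over all genes, 8 as reported, were 0 with no filter, 23 at a threshold of 0.1, 54 with sample weights and 0 to 3 with single libraries left out, the highest without Control replicate 1. Libraries of the same replicate number showed no sign of pairing (correlation of deviations -0.153, -0.119 and 0.0054). With 3 libraries per group these correlations cannot settle whether the numbers pair them. With the replicate block 0 genes were called and 7 members had an unadjusted p under 0.05. With single libraries left out, the median of all members ran from -0.13 to -0.080, of biogenesis from -0.18 to -0.035, of enzymes from -0.14 to -0.082, of surface and matrix from -0.14 to -0.056, of further biogenesis genes from -0.10 to -0.030, of exocytosis from -0.046 to 0.034 and of ADAM3 maturation from -0.28 to -0.18. With the GC trend removed the median was -0.040 for biogenesis, -0.16 for enzymes, -0.11 for surface and matrix and -0.063 for exocytosis. The exocytosis median was -0.10 with the filter of 5 RPKM, -0.095 with limma-voom and 0.027 with sample weights, and the surface and matrix median with sample weights was -0.053. The cause of these shifts was not tested. Members held 59 to 64498 reads per library, and depth limits Pgap1, at 59 to 97 reads, which was not tested. The tested members had a median SE of 0.081 with 3 libraries per group.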

Other observations

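Crisp2 was unusually even among the Control libraries, with a coefficient of variation of 0.079% at about 392 RPKM, against 15.04% in Middle. The coefficient of variation was larger in Middle than in Control for 26 of the 34 tested members (76.5%), against 66.9% of all genes tested. The opposite-strand gene D630011A20Rik, which overlaps Spaca7, stood at 43.5, 61.0 and 49.3 RPKM in Middle and at 73.5, 69.4 and 80.8 RPKM in Control, the same order of libraries as Spaca7. The opposite-strand gene Gm17189, which overlaps Ly6k, stood at 22.3, 18.9 and 20.2 RPKM in Middle and at 15.7, 15.9 and 17.2 RPKM in Control. The counting is not stated to use strand, so these values and those of the members may hold the same reads.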
